A study of Bos taurus with 9 samples.

Results

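H3K9ac and H3K27ac are acetyl groups on neighbouring parts of the same histone tail, and here they were compared with each other in butyrate-treated MDBK cells. The peaks were those of 2 libraries, the butyrate H3K9ac library with 115114 peaks and the butyrate H3K27ac library with 187475. Together these were 302589 of the 673926 peaks in 8 deposited peak lists. A peak was taken to carry the other mark when at least 1 bp of it lay under a peak of the other list, and otherwise was taken to be alone. Every peak of the 2 lists fell in one of 4 classes, which were H3K9ac with H3K27ac (71030 peaks), H3K9ac alone (44084), H3K27ac with H3K9ac (65399) and H3K27ac alone (122076).

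MDBK is an established epithelial line from bovine kidney. Chromatin immunoprecipitation followed by sequencing was done against H3K9ac, H3K27ac, H3K9me3 and RNA polymerase II, 4 antibodies in all, each in untreated control cells and in cells exposed to 5 mM butyrate for 24 h. Each combination of antibody and condition had 1 library, so no difference had a replicate check, no test between libraries was made, and the 95% intervals given with shares and medians cover counting error only. All control ChIP libraries were run on lane 4 and all butyrate libraries on lane 5, so lane and treatment cannot be told apart. The lists give positions without heights, and read depth is not in them.

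Histone acetylation is set by acetyltransferases and removed by histone deacetylases, a group of enzymes that butyrate inhibits. H3K9ac is known for active promoters, with acetyltransferases of the GCN5 and PCAF family as its main writers. H3K27ac marks both active promoters and active enhancers and is written by CBP and p300. Regions with both marks are therefore often found at promoters, but the marks do not by themselves tell promoters from distal elements. No annotation of the assembly of the lists was used, so promoters and enhancers were not told apart here and regions are given by position on UMD3.1. The marks came from separate libraries of many cells, and a peak in both lists does not show that they sat on the same molecule or in the same cell.

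The overlap was unequal in its directions, and the H3K27ac list was the larger. Of the H3K9ac peaks, 61.7% (95% Wilson interval, 61.4 to 62.0) carried H3K27ac, and of the H3K27ac peaks, 34.9% (34.7 to 35.1) carried H3K9ac. In covered bases, H3K9ac took up 37.0 Mb and H3K27ac 81.0 Mb, with 21.2 Mb under both. That was 57.2% of the H3K9ac bases, 26.1% of the H3K27ac bases and 21.9% of all bases under either mark. The H3K27ac coverage of H3K9ac bases was 18.8 times its coverage of the genome span, and 40.1 times in control. The share of H3K9ac bases was 57.2% in both conditions, so the folds differ because H3K27ac covered 3.05% of the span after butyrate and 1.43% in control.

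When peaks that touched across the lists were joined, the lists formed 228020 regions. Of these, 27.1% carried both marks, 19.3% H3K9ac only and 53.5% H3K27ac only. Among the 61860 regions with both marks, 83.6% joined 1 H3K9ac peak to 1 H3K27ac peak. Several H3K9ac peaks under 1 H3K27ac peak made up 10.9%, and the opposite arrangement 3.84%. The remaining 1.72% had at least 2 peaks of each mark.

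Beside the control cells, the H3K9ac share was close and the H3K27ac share was lower. In control, 60.3% of H3K9ac peaks carried H3K27ac, 1.36 percentage points below butyrate (95% Newcombe interval of the difference, 0.91 to 1.81). The share of H3K9ac bases under H3K27ac was 57.2% in control also. By contrast, 45.5% of control H3K27ac peaks carried H3K9ac, and the butyrate minus control difference was -10.6 percentage points (-11.0 to -10.2). The share of H3K27ac bases under H3K9ac was 43.7% in control against 26.1% after butyrate. The H3K27ac list held 1.28 times as many peaks and 1.31 times as many bases as the H3K9ac list in control, and 1.63 times as many peaks and 2.19 times as many bases after butyrate. List size bears on these shares. With each H3K27ac list cut to its longest peaks, as many as there were H3K9ac peaks, the difference was -4.27 percentage points for H3K9ac, the opposite direction, and -7.31 for H3K27ac. With peaks of at least 500 bp only, the differences were 4.69 and -30.7 percentage points, and the butyrate share of H3K27ac peaks with H3K9ac was 17.1%. With an overlap of at least 50% they were 3.28 and -14.8, and that share was 21.6%. The 500 bp minimum did not make the lists equal in size, least of all after butyrate. It kept 10928 butyrate H3K9ac peaks with H3K27ac and 1271 alone, against 30961 H3K27ac peaks with H3K9ac and 17367 alone. In control these counts were 13762 and 1368 for H3K9ac, and 16494 and 2927 for H3K27ac. How far list size sets the differences at this minimum was not tested.

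Peaks that carried both marks were longer than those that carried 1. H3K9ac peaks with H3K27ac had a median length of 298 bp (exact binomial interval, 297 to 300) and those alone 242 bp (241 to 243). H3K27ac peaks with H3K9ac had a median of 476 bp (473 to 479) and those alone 286 bp (285 to 287). The difference was clearest among long peaks. At 1 kb or more there were 641 H3K9ac peaks with H3K27ac and 10 alone, and 8670 H3K27ac peaks with H3K9ac against 1285 alone. Peaks at the minimum of 199 bp made up 19.7% of the H3K9ac peaks alone and 8.96% of those with H3K27ac. A longer peak has more bases at which to meet another, so length and overlap are not independent measures.

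The share with the other mark rose with length in both lists. For H3K9ac it went from 42.4% at the minimum length through 67.4% at 300 to 399 bp to 98.5% at 1 kb or more. For H3K27ac it went from 17.3% through 29.2% to 87.1%. Set beside control at equal length, short H3K9ac peaks carried H3K27ac more often after butyrate (42.4% against 29.7% at the minimum length, 52.6% against 43.9% at 200 to 249 bp), and from 500 bp upward the shares of the 2 conditions lay within 1 percentage point, with butyrate the lower at 1 kb or more. The sizes of the lists were not equal in this reading by length. H3K27ac peaks of every length carried H3K9ac less often after butyrate, by a small margin at the minimum length (17.3% against 18.5%, intervals overlapping) and by a wide one among long peaks. At 500 to 749 bp it was 52.8% against 77.2% in control, and at 750 to 999 bp 71.1% against 90.4%.

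**Figure D1:**
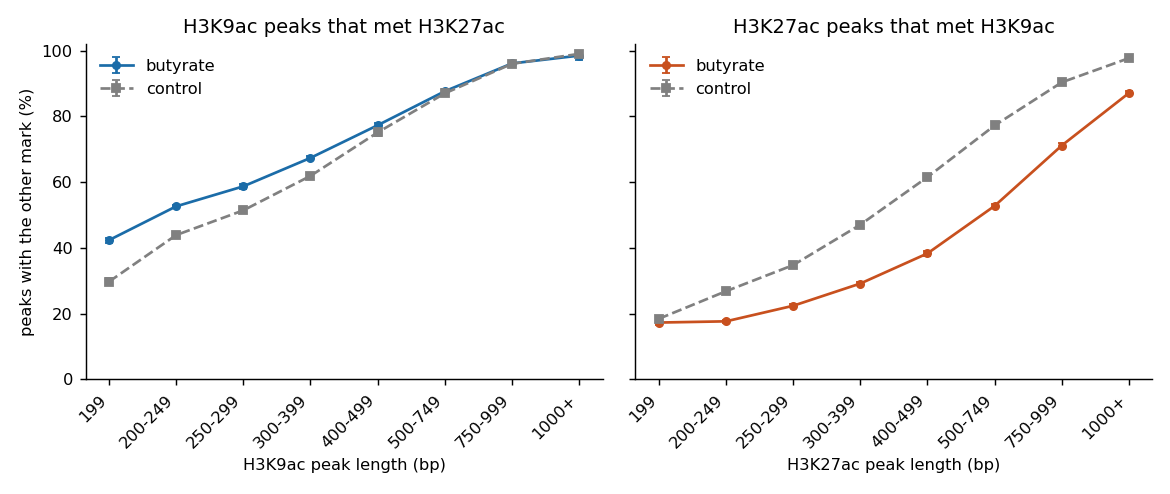
Share of peaks (%, vertical axis) that met a peak of the other mark, by peak length (bp, horizontal axis), for H3K9ac peaks (left) and H3K27ac peaks (right); solid lines are butyrate, dashed grey lines control, and bars are 95% Wilson intervals. The butyrate line is above control for H3K9ac up to 999 bp and below control for H3K27ac at every length, reaching 87.1% at 1 kb or more where control reached 97.7%.

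Where 1 H3K9ac peak met 1 H3K27ac peak, the H3K27ac peak was usually the wider. In the 51706 such pairs after butyrate, the median length was 293 bp for H3K9ac and 450 bp for H3K27ac. Taken pair by pair, H3K27ac was 1.40-fold as long in the median (log2 0.48, 95% interval 0.48 to 0.49). It was longer in 75.1% of pairs, shorter in 22.6% and of equal length in 2.30%. The H3K27ac peak was at least 2 times as long in 27.1% of pairs, and the H3K9ac peak in 2.22%. In the 32382 pairs of control the median fold was 1.08 (log2 0.12), and H3K27ac was longer in 58.5%. With peaks of a list joined within 1 kb, the butyrate log2 value was 0.76. Both lengths differed between conditions, since the paired H3K9ac peaks had a median of 345 bp in control and the paired H3K27ac peaks one of 388 bp.

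The excess width was largest over short H3K9ac peaks. For H3K9ac peaks of the minimum length the median fold was 1.89, at 300 to 399 bp it was 1.31, and at 750 bp or more 1.09. The median length of the H3K27ac partner changed little over the shortest H3K9ac classes, from 376 bp at the minimum length to 402 bp at 250 to 299 bp, and was 981 bp over the longest. Pairs were formed only where peaks overlapped, which favours long partners for short peaks, so this gradient is not independent of how pairs were chosen.

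In 52.7% of the pairs (52.3 to 53.2) the H3K9ac peak lay wholly inside the H3K27ac peak, in 9.23% the H3K27ac peak lay inside the H3K9ac peak, and in 38.0% the peaks were staggered. In control these shares were 36.9%, 17.7% and 45.3%. The centres lay a median of 84 bp apart, within 200 bp in 82.8% of pairs and over 500 bp apart in 331 pairs. The H3K27ac centre lay at the higher coordinate in 49.2% of pairs, at the lower in 49.0% and at the same position in 1.80%. A median of 247 bp was shared. Of the H3K9ac peaks nested in a wider H3K27ac peak, 36.2% (35.6 to 36.8) had their position in the central 50% of the room they had, and 35.7% in control. The others lay nearer an edge on this relative scale. Where the room was only a few bp, a shift of a few bp counted as an edge position, and pairs were not split by room.

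The fold differed between kinds of region, but a wider peak is more likely to meet a peak of any other list, so the kinds were not formed independently of width. In the 8429 pairs that also met an RNA polymerase II (Pol II) peak, H3K27ac was 1.61-fold as long (1.58 to 1.63), and in the 43277 pairs without Pol II 1.36-fold (1.35 to 1.37). Pairs at places where control cells already had both marks had a fold of 1.64 (16731 pairs), and those where control had neither a fold of 1.26 (22112 pairs). The pairs at places with only H3K27ac in control (1.46) and only H3K9ac in control (1.31) lay between these. The paired H3K27ac peaks were 625 bp long at places with both marks in control and 356 bp at places with neither, and the H3K9ac peaks 336 and 267 bp, so that H3K27ac length varied more between these kinds of place. Across the 29 autosomes the median fold ran from 1.30 on chromosome 5 to 1.52 on chromosome 29.

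Single H3K27ac peaks could span several H3K9ac peaks. There were 7898 H3K27ac peaks (4.21%) that met 2 or more H3K9ac peaks, with a median length of 1052 bp, and 192 of them met 4 or more. In the other direction, 3487 H3K9ac peaks (3.03%) met 2 or more H3K27ac peaks. The H3K27ac peak that met most H3K9ac peaks was chr12:27895370-27900581, 5212 bp long, with 9 H3K9ac peaks that together covered 3281 bp and no Pol II peak. In control cells this stretch held 5 H3K9ac and 4 H3K27ac peaks. The longest H3K27ac peak with H3K9ac, chr4:95462699-95468556, was 5858 bp long and held 7 H3K9ac peaks over 2870 bp and 5 Pol II peaks. The H3K9ac peak that met most H3K27ac peaks, chr2:17648738-17649680, was 943 bp long and met 4 of them.

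The longest nuclear H3K9ac peak that carried H3K27ac was chr7:53182484-53185067, with 2584 bp. H3K27ac covered 2521 bp of it, and its first 2238 bp were the longest unbroken interval under both marks. The longest H3K9ac peak alone was much shorter, 1229 bp at chr23:19830268-19831496, where neither acetyl mark had a peak in control and neither Pol II nor H3K9me3 had one after butyrate. The longest H3K27ac peak alone was 3879 bp at chr5:19597751-19601629. In control that stretch had held 3 H3K9ac and 4 H3K27ac peaks, so H3K9ac peaks there were listed in control and not after butyrate. Genes there were not named, because the gene table at hand was of another assembly.

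Peaks of 1 mark alone were often close to the other mark without touching it. From an H3K9ac peak alone to the nearest H3K27ac peak the median distance was 2574 bp (2510 to 2642), and from an H3K27ac peak alone to the nearest H3K9ac peak 1844.5 bp (1821 to 1868). Within 1 kb of the other mark lay 32.9% of the H3K9ac peaks alone and 35.7% of the H3K27ac peaks alone, and within 5 kb 62.4% and 72.7%. Over 100 kb away were 862 H3K9ac and 1366 H3K27ac peaks. In control the order was the other way, with 1470 bp for H3K9ac alone and 2149 bp for H3K27ac alone. H3K9ac peaks alone were thus farther from H3K27ac after butyrate although the butyrate H3K27ac list was larger. Distances depend on which peaks are kept: with peaks of at least 500 bp only, the butyrate medians were 5872 bp from H3K9ac alone and 15423 bp from H3K27ac alone, the opposite order.

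Shared peaks were more tightly clustered than unshared ones of the same mark. An H3K9ac peak with H3K27ac had its nearest H3K9ac neighbour at a median of 678 bp, and one alone at 2259 bp. For H3K27ac the distances were 259 bp with H3K9ac and 449 bp alone. The kind of neighbour went with the kind of peak. For H3K9ac peaks with H3K27ac, the nearest other H3K9ac peak also carried H3K27ac in 79.3% of cases, against 42.9% for H3K9ac peaks alone. For H3K27ac the same shares were 47.8% and 30.3%. In the whole lists, 61.7% of H3K9ac peaks and 34.9% of H3K27ac peaks carried the other mark. Part of the agreement between neighbours is built in, as 7898 H3K27ac peaks each met several H3K9ac peaks and made those neighbours shared together. H3K9ac peaks also carried H3K27ac more often where H3K27ac peaks were dense, so spacing and sharing are not independent. How far this sets the clustering and the agreement was not tested.

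The surroundings of the peaks also differed between the classes, but the classes were formed by overlap, which largely sets the values near the centre. A peak alone cannot have the other mark at its centre, and overlapping peaks of the other mark reach into the flanks. The share at 5 kb also depends on how densely peaks lie in a region. At the centre of H3K9ac peaks with H3K27ac, 87.8% of positions lay under an H3K27ac peak, and the share was 31.1% at 1 kb and 19.0% at 5 kb, still 6.23 times the 3.05% of the genome span under H3K27ac. Around H3K9ac peaks alone it did not exceed 8.39%, reached at 550 bp, and at 5 kb it was 7.92%, or 2.60 times the genome span. Around H3K27ac peaks with H3K9ac, the share under H3K9ac was 68.6% at the centre, 12.0% at 1 kb and 7.69% at 5 kb. Around H3K27ac peaks alone it was 5.77% at 5 kb, nearer to that of the shared peaks, and 4.15 times the 1.39% of the span under H3K9ac.

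**Figure D2:**
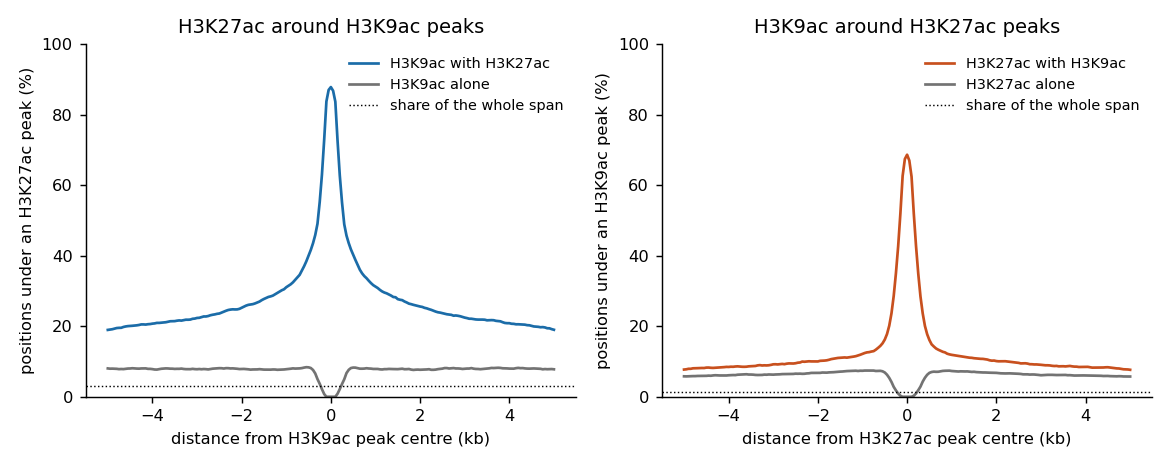
Share of positions (%, vertical axis) under a peak of the other mark by distance in kb from the peak centre (horizontal axis), for H3K9ac peaks (left) and H3K27ac peaks (right) that carried the other mark (coloured) or were alone (grey), with the share of the whole genome span as a dotted line. At 5 kb the coloured and grey lines are at 19.0% and 7.92% on the left and at 7.69% and 5.77% on the right.

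Runs of peaks of 1 mark alone, unbroken by any peak of the other, were longer for H3K27ac. The 48155 H3K27ac runs included 1156 with 10 or more peaks, and the 26546 H3K9ac runs included 45. There were 122076 H3K27ac peaks alone and 44084 H3K9ac peaks alone, and a larger list forms longer runs. How far list size sets this difference was not tested. The longest H3K27ac run had 63 peaks over 205837 bp at chr19:55122631-55328467, with 21125 bp under H3K27ac, 4 Pol II peaks and no H3K9me3 peak. The same stretch had 5 H3K9ac and 30 H3K27ac peaks in control. The longest H3K9ac run had 17 peaks over 821401 bp at chr14:40953411-41774811, with 4770 bp under H3K9ac. That stretch also held 55 H3K9me3 and 6 Pol II peaks after butyrate, and in control 4 H3K9ac and 11 H3K27ac peaks.

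On the scale of chromosomes the marks went together. The number of peaks per Mb over the 29 autosomes had Pearson's r of 0.90 and Spearman's rho of 0.94 between the marks, and the counts in 2677 windows of 1 Mb an r of 0.93 and a rho of 0.95. These are descriptions, as chromosomes and windows share the same libraries and input. Counts of H3K9ac peaks alone and H3K27ac peaks alone had an r of 0.69 over the same windows. Windows with more H3K27ac than H3K9ac peaks numbered 2023, and those with more H3K9ac peaks 315. When windows were ranked by their number of H3K27ac peaks, 27.1% of H3K9ac peaks carried H3K27ac in the fifth with fewest and 68.9% in the fifth with most. This rise is built into the ranking, since more H3K27ac peaks give more to meet.

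Autosomes differed by 11.4 percentage points in the share of H3K9ac peaks with H3K27ac, from 57.8% on chromosome 4 (56.5 to 59.1) to 69.2% on chromosome 19 (67.6 to 70.7), with a median of 61.3%. Chromosome 19 stood apart, as the next highest, chromosome 10, had 64.0%. Chromosome 19 also had most H3K27ac peaks per Mb (110.2) and most H3K27ac peaks per H3K9ac peak (2.01). The share of H3K27ac peaks with H3K9ac ran from 29.9% on chromosome 18 (28.5 to 31.3) to 38.5% on chromosome 5 (37.6 to 39.4), and the interval of chromosome 18 overlapped that of chromosome 25 at 31.4%.

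The X chromosome lay outside the range of the autosomes. After butyrate it had 601 H3K9ac and 2746 H3K27ac peaks, or 4.57 H3K27ac peaks per H3K9ac peak, where no autosome exceeded 2.01. H3K27ac was carried by 40.4% of its H3K9ac peaks (36.6 to 44.4), and H3K9ac by 8.78% of its H3K27ac peaks (7.77 to 9.89). Peaks were also sparse there, with 4.04 H3K9ac and 18.5 H3K27ac peaks per Mb, where the lowest autosome had 27.8 and 50.5. In the fifth of 1 Mb windows with 6 to 33 H3K27ac peaks, 45.5% of H3K9ac and 31.2% of H3K27ac peaks carried the other mark. How far density sets the X shares was not tested. In control the X chromosome had 852 H3K9ac and 1583 H3K27ac peaks, of which 64.3% (61.0 to 67.5) and 32.7% (30.4 to 35.0) carried the other mark. The X share for H3K9ac was thus above that of the whole control list and below that of the whole butyrate list, and the X share for H3K27ac was below the whole list in both conditions. The 215 X pairs that remained had a median width fold of 1.43 (1.25 to 1.57), close to 1.40 on the autosomes.

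**Figure D3:**
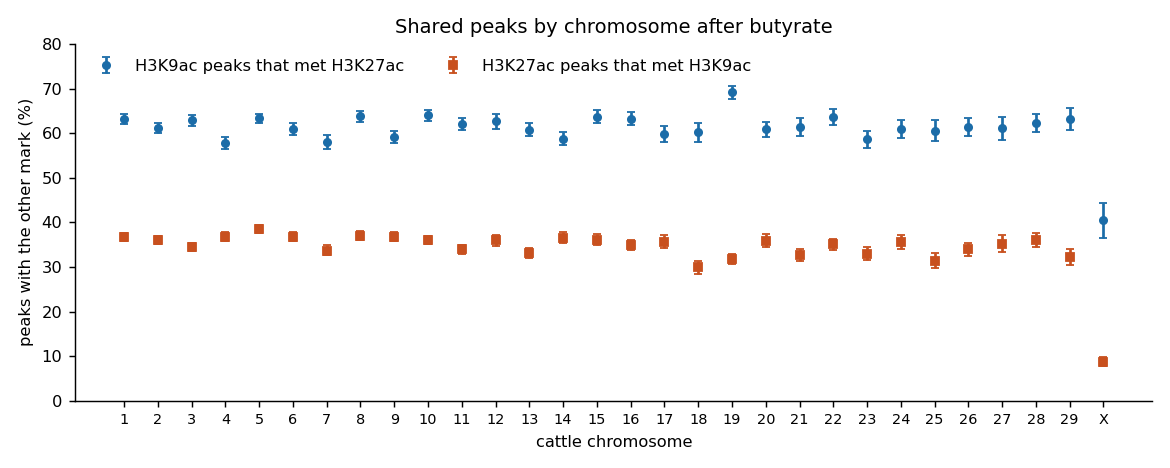
Share of peaks (%, vertical axis) that carried the other mark on each cattle chromosome (horizontal axis) after butyrate, for H3K9ac (blue circles) and H3K27ac (orange squares), with 95% Wilson intervals. The X chromosome, at 40.4% and 8.78%, lies below all 29 autosomes for both marks, and chromosome 19 is highest for H3K9ac at 69.2%.

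The 1 Mb window with most bases under both marks was chr8:40000001-41000000. It held 307 H3K9ac and 461 H3K27ac peaks and 89.3 kb under both, together with 67 Pol II and 41 H3K9me3 peaks. Most H3K27ac peaks alone, 280 of 444, lay in chr1:79000001-80000000, where H3K27ac covered 210.3 kb against 62.4 kb in control and H3K9ac 66.1 kb against 39.2 kb. Most H3K9ac peaks alone, 79 of 162, lay in chr5:18000001-19000000, which also held 103 H3K9me3 and 51 Pol II peaks. In this window H3K9ac covered 58.7 kb after butyrate and 54.4 kb in control, and control had 144 H3K9ac and 142 H3K27ac peaks there. Over the whole span of 2659.93 Mb, the butyrate lists held 89487 H3K9me3 and 31240 Pol II peaks. Whether the counts of these lists in the named windows and runs went with the acetyl classes was not tested.

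Pol II was found more often at peaks with both marks than at peaks with 1. Pol II is the enzyme complex that transcribes messenger RNA genes, and its list came from a separate library of the same treated cells. Of the H3K9ac peaks with H3K27ac, 16.0% (15.8 to 16.3) met a butyrate Pol II peak, and of those alone 3.47% (3.30 to 3.65), a difference of 12.5 percentage points (12.2 to 12.9). Of the H3K27ac peaks with H3K9ac, 18.1% met Pol II, and of those alone 4.76%, a difference of 13.3 percentage points (13.0 to 13.7). When at least 50% of a peak had to be covered, the differences were 7.15 percentage points for H3K9ac and 3.96 for H3K27ac, and with peaks of at least 500 bp only 21.4 and 20.2. Peaks with both marks were longer, so the shares were also read at equal length. The shared class was higher in all 8 length classes of both marks. At 300 to 399 bp the shares were 15.6% and 4.14% for H3K9ac and 9.89% and 4.38% for H3K27ac. The control Pol II list was larger, with 56240 peaks against 31240 in the butyrate list. With it, the differences over the same butyrate peaks were smaller, 2.16 points for H3K9ac (1.85 to 2.46) and 6.22 for H3K27ac (5.97 to 6.47). At 300 to 399 bp that list met 8.10% and 6.81% for H3K9ac and 6.53% and 3.43% for H3K27ac. Only at 400 to 499 bp was the H3K9ac class alone higher, 10.3% against 9.54%.

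Pol II was also more frequent the more H3K9ac peaks an H3K27ac peak held. Among H3K27ac peaks of 1 kb or longer, 19.7% of the 1285 with no H3K9ac peak met Pol II, 37.6% of the 4407 with 1, 44.7% of the 3280 with 2, 52.2% of the 791 with 3 and 69.8% of the 192 with 4 or more. Length still rises with the number of H3K9ac peaks within this class. Seen from the Pol II list, 36.2% of its 31240 peaks met both marks, 23.1% H3K27ac only, 5.12% H3K9ac only and 35.6% neither.

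H3K9me3 is a mark of silenced chromatin, and its butyrate list gave opposite signs for the acetyl marks. It met 5.27% of H3K9ac peaks alone (5.06 to 5.48) and 3.41% of those with H3K27ac (3.28 to 3.55), so that the share with H3K27ac minus the share alone was -1.86 percentage points. For H3K27ac it met 2.16% of peaks alone (2.08 to 2.24) and 4.0% of those with H3K9ac (3.85 to 4.15), and the same difference was 1.84 percentage points. Over all lengths, the opposite signs were not seen with the control H3K9me3 list, which held 25628 peaks against 89487 in the butyrate list. Its differences over the same butyrate peaks were 0.83 points for H3K9ac (0.62 to 1.05) and 3.06 for H3K27ac (2.89 to 3.23). At equal length the control H3K9ac difference had no single direction. At the minimum length the control list met 2.26% of H3K9ac peaks with H3K27ac and 2.52% of those alone. At 300 to 399 bp the shares were 3.74% and 3.54%, and at 400 to 499 bp 4.89% and 5.34%. The sizes of the butyrate differences also depended on the overlap rule. With an overlap of at least 50% of the peak they were -1.59 and 0.33 points, and with peaks joined within 1 kb -0.79 and 4.73. With the butyrate H3K9me3 list, the direction was the same in all 8 length classes of each mark. However, the H3K9ac class at 1 kb or more had 10 peaks alone. The interval of the H3K9ac difference reached 0 when both acetyl lists were limited to peaks of at least 500 bp. The overlap in bases with H3K9me3 was 3.61 times its coverage of the span for H3K9ac alone, 2.12 for H3K9ac with H3K27ac, 1.67 for H3K27ac with H3K9ac and 1.30 for H3K27ac alone. Chromosomes 5 and 14, chosen after the values were seen because dense stretches lie on them, had higher shares (15.9% of H3K9ac peaks alone and 10.5% of those with H3K27ac). For H3K27ac they had 3.64% of peaks alone and 11.8% of those with H3K9ac. On all other chromosomes the shares were 4.08% and 2.61% for H3K9ac and, for H3K27ac, 2.02% alone and 3.14% with H3K9ac. Most H3K9me3 peaks (91.5% of 89487) met neither acetyl mark.

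**Figure D4:**
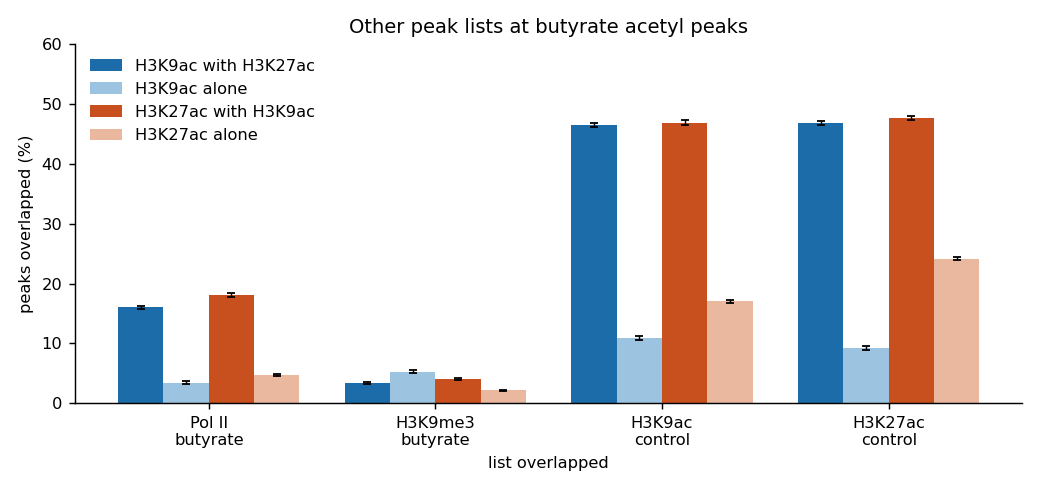
Share of butyrate acetyl peaks (%, vertical axis) in each of 4 classes that met a peak of 4 other lists (horizontal axis), with 95% Wilson intervals. Peaks with both marks (dark bars) are above peaks alone (light bars) for Pol II and both control acetyl lists, and for H3K9me3 the order is reversed between H3K9ac (3.41% and 5.27%) and H3K27ac (4.0% and 2.16%).

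The classes also differed in what the control cells had at the same places. Of the H3K9ac peaks alone after butyrate, 83.5% met neither control acetyl list, and of those with H3K27ac 40.9%. The shares with neither were 70.3% for H3K27ac alone and 40.6% for H3K27ac with H3K9ac. Peaks alone were shorter and had fewer bases at which to meet a control peak, so these shares are not independent of length. At 300 to 399 bp, control H3K9ac met 47.3% of H3K9ac peaks with H3K27ac and 13.6% of those alone. At the same length, control H3K27ac met 34.0% of H3K27ac peaks with H3K9ac and 24.8% of those alone. Of the H3K9ac peaks with H3K27ac, 34.2% met both marks in control, 12.3% H3K9ac only and 12.6% H3K27ac only. Among H3K27ac peaks alone, 11.5% lay where control had both marks, which for H3K9ac peaks alone was 3.58%.

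Followed forward, control H3K9ac peaks that carried H3K27ac met both marks after butyrate in 51.2% of 44728 cases, H3K27ac only in 33.9%, H3K9ac only in 3.36% and neither in 11.5%. Of the 29397 control H3K9ac peaks alone, 28.8% met both marks after butyrate, 26.2% H3K27ac only, 10.7% H3K9ac only and 34.3% neither. Of the 51567 control H3K27ac peaks alone, 17.2% met both, 32.6% H3K27ac only, 5.03% H3K9ac only and 45.2% neither. From each of these control classes, more peaks were found under H3K27ac only than under H3K9ac only after butyrate, from 33.9% against 3.36% to 26.2% against 10.7%. The larger butyrate H3K27ac list makes a meeting with H3K27ac more frequent in any class.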

How the data were processed

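The authors trimmed reads with Trim Galore 0.4.1 (submitters' processing notes), aligned them to UMD3.1 with BWA, kept uniquely mapped reads with few mismatches, and called peaks in each library with MACS2 at default settings against the MDBK input. The deposited lists hold other values than counts: chromosome, start and end in bp. Starts were read as counted from 0. The shortest end minus start was 199 in each list, so starts may be counted from 1, and lengths 1 bp too low. Read depth is not in the lists and the input library was not analysed here.

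Classes, lengths, pairs, distances and overlaps were computed with Python 3.11.15, numpy 2.4.6 and scipy 1.17.1, after their code was tested on simulated peaks with a planted overlap. Figures were drawn with matplotlib 3.10.9. Shares have Wilson, differences Newcombe and medians exact binomial 95% intervals. Peaks are not independent, so these cover counting error only. The span was 2659.93 Mb, the sum of last peak ends. Regions named were the longest peak of each class, the longest interval under both marks, the peaks meeting most peaks of the other mark, the 1 Mb windows with most bases under both or most peaks alone, and the longest run of each mark. The comparisons and rules were chosen with earlier results of these data known. The gene table at hand was of ARS-UCD2.0, and on 8 chromosomes acetyl peaks lay over 1 Mb beyond its last gene, so its coordinates were not used. Alternatives were a minimum length of 500 bp, an overlap of 50%, joining within 1 kb, autosomes, H3K27ac cut to the longest peaks, and no minimum-length peaks.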

Additional observations from a re-analysis of the deposited data

Results flagged for a closer look

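The sign of the H3K9me3 difference was opposite in the acetyl lists. The share met by H3K9me3, peaks with the other mark minus peaks alone, was -1.86 percentage points for H3K9ac and 1.84 for H3K27ac. With the control H3K9me3 list in place of the butyrate one, both values over all lengths were positive, 0.83 and 3.06. At equal length the control value for H3K9ac had no single direction. The control list met 2.26% of H3K9ac peaks with H3K27ac and 2.52% of those alone at the minimum length, and 3.74% and 3.54% at 300 to 399 bp. With 1 library per mark, the difference between the H3K9ac and H3K27ac values was not tested. Without chromosomes 5 and 14, an alternative chosen after seeing the data, the butyrate values were -1.47 and 1.13.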

How the results depend on the processing

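No paired analysis was possible because only 1 library stood for each antibody and condition. Of 58 values recomputed over 16 results, 8 stayed within the 95% interval of the reported value, 49 left it in the same direction and 1 changed sign. Shares, nesting, distances and ranges over autosomes cannot change sign, so for these the tally says nothing about direction. The tally also leaves out the order of the distances, which was opposite with peaks of at least 500 bp only. With H3K27ac cut to its longest peaks, as many as H3K9ac, the butyrate minus control difference for H3K9ac was -4.27 percentage points instead of 1.36. The H3K27ac difference was then -7.31 points, the shares with the other mark 51.5% (H3K9ac) and 45.1% (H3K27ac), the log2 width 0.70, nesting 61.3%, and distances 3693 bp (H3K9ac alone) and 1689 bp (H3K27ac alone).

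With peaks of at least 500 bp only, the shares were 68.6% and 17.1%, the ratios of median length, with the other mark over alone, 1.09 and 1.35, the log2 width 0.45, nesting 62.7%, the distances 5872 bp and 15423 bp, the H3K9ac range over autosomes 15.2 points, the Pol II differences 21.4 and 20.2 points, the H3K9me3 differences -0.78 and 3.35, and the differences from control 4.69 and -30.7. This minimum kept 10928 of 71030 H3K9ac peaks with H3K27ac and 30961 of 65399 H3K27ac peaks with H3K9ac, so the lists were not equal in size under it.

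With an overlap of 50% the shares were 54.8% and 21.6%, the length ratios 1.20 and 1.28, the Pol II differences 7.15 and 3.96, the H3K9me3 differences -1.59 and 0.33, and the differences from control 3.28 and -14.8. With peaks joined within 1 kb the shares were 59.6% and 44.2%, the log2 width 0.76, nesting 55.0%, the distances 4029 bp and 3957 bp, the Pol II differences 17.4 and 22.5, and the H3K9me3 differences -0.79 and 4.73. Without minimum-length peaks the shares were 63.0% and 33.5% and the H3K9ac length ratio 1.20. On autosomes the H3K27ac share was 35.3% and its distance 1787 bp. Without chromosomes 5 and 14 the H3K9me3 differences were -1.47 and 1.13. Depth was not in the lists, and how far it sets the larger H3K27ac list was not tested.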

Other observations

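The order in which each list gives its peaks also went with the class. Both lists come as blocks sorted by position, 116 blocks for H3K9ac and 284 for H3K27ac, and the sources used here do not name the value that orders the blocks. Before the longest block of the H3K9ac list, 82.1% of 17320 peaks carried H3K27ac, against 56.8% in that block and 59.1% after it. For H3K27ac, 42.0% of 84701 peaks before the longest block carried H3K9ac, 29.6% in it and 28.7% after it. The peaks before the block were longer, with a median of 357 bp for H3K9ac and 434 bp for H3K27ac, against 260 bp and 276 bp after it.

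On the mitochondrial genome, which has no histones, each butyrate acetyl list had 10 peaks, and 67.2% of the span lay under both. These peaks are in the counts of the whole lists and in no named region.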
